A study of Paeonia lactiflora with 9 samples.

Results

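The cutin, suberin and wax unigenes described here are 27 of the 125685 unigenes (assembled transcripts) in the expression table of developing herbaceous peony seeds. They were taken from the 503 DEGs (differentially expressed genes) that the study listed for lipid metabolism, by searching the functional definition of each for enzymes of surface lipids. The search matched 5 alcohol-forming acyl-CoA reductases, 6 feruloyl transferases, 7 peroxygenases, 3 wax-ester synthases, 2 fatty acid omega-hydroxylases, 2 aldehyde decarbonylases, 1 omega-hydroxy dehydrogenase and 1 midchain alkane hydroxylase. Of the 27, 15 were contigs of 11 clusters of similar sequences and 12 were single unigenes. The ending of the deposited names that all unigenes share is left out below. Every unigene had been listed by the study because it differed between stages, so the differences between stages given here are a description of a selected set, and no p-value is given for any of its members.

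The study followed oil accumulation in seeds of Paeonia lactiflora 'Hangshao', a cultivated herbaceous peony. Seeds, for which the labels name no treatment, were collected at 30, 60 and 90 DAF (days after flowering), and 3 libraries were sequenced for each stage, 9 in all. The methods say that the seeds came from 1 plant, and that those sequenced came from 1 strain. The SD over 3 libraries may therefore not reflect how plants differ. The samples are described as seeds, which hold several tissues, and in such samples fewer cells of a type and less RNA per cell cannot be told apart.

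Cutin and suberin are polyesters of hydroxylated fatty acids. Cutin forms the framework of the cuticle on the outer wall of epidermal cells, and suberin, which also holds ferulic acid and long-chain alcohols, is laid down in walls of inner barrier tissues, among them parts of seed coats. Cuticular waxes are mixtures of alkanes, alcohols, ketones and esters that fill and cover the cutin framework, and in seeds these layers control the passage of water and gases.

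Expression was deposited as FPKM, the number of fragments per kilobase of unigene, scaled to the mapped fragments of a library, which can be compared between unigenes because it is set per length. Depth is not given in FPKM values, and the study lists nearly equal numbers of clean reads for all libraries. The most common ratio of low FPKM values between a library and replicate 1 at 30 DAF was used to estimate depth in mapped fragments. It gave 0.871 to 1.07 times the depth of that replicate. Correlations between libraries, taken across unigenes, which are not independent replicates, were 0.814 to 0.949 within a stage and 0.612 to 0.887 between stages. Oleosin, the structural protein of seed oil bodies, was present in every library, with a summed FPKM of 816 ± 84.9, 6556 ± 1990 and 9813 ± 2632 at 30, 60 and 90 DAF (mean ± SD, n = 3). Caleosin, the oil body protein that binds calcium, summed to 452 ± 63.7, 696 ± 61.8 and 1333 ± 252 FPKM. The contrasts follow the study: Group I is 60 against 30 DAF, Group II is 90 against 60 DAF and Group III is 90 against 30 DAF. On the scale of log2(FPKM + 0.5), the median change over all unigenes tested was -0.31, 0.36 and 0.06 for these groups in turn. Dividing each library by its median ratio to the other libraries, here called median-of-ratios scaling, brought these medians to -0.03, -0.04 and -0.07. After this scaling the oleosin sums were 755, 7915 and 7723 FPKM and the caleosin sums 415, 852 and 1046 FPKM. The order of 60 and 90 DAF for oleosin thus depended on the scaling, and its deposited sums overlapped between these stages.

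The cutin, suberin and wax unigenes were expressed early and were mostly at or near 0 at the last stage. Their summed FPKM was 232, 292 and 234 in the 3 libraries at 30 DAF, 241, 157 and 129 at 60 DAF, then 36.3, 43.6 and 36.8 at 90 DAF. The libraries at 30 and 60 DAF overlapped, and every library at 90 DAF was below all the others. From the earliest to the latest stage the mean sums were 253 ± 34.4, 176 ± 58.4 and 38.9 ± 4.1, or 230, 212 and 30.8 after median-of-ratios scaling.

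The make-up of the sum changed as well as its size. At 30 DAF the peroxygenases held 38.6% of it, the feruloyl transferases 30.3% and the acyl-CoA reductases 17.6%. At 60 DAF the peroxygenases held 45.9%, the reductases 28.7% and the feruloyl transferases 14.4%. At 90 DAF a single wax-ester synthase, CL7151.Contig1, held 65.6%, against 2.5% at 30 DAF and 7.13% at 60 DAF. Without it, the other 26 unigenes summed to 247 ± 34.7, 163 ± 57.8 and 13.4 ± 3.6 FPKM at the 3 stages.

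**Figure D1:**
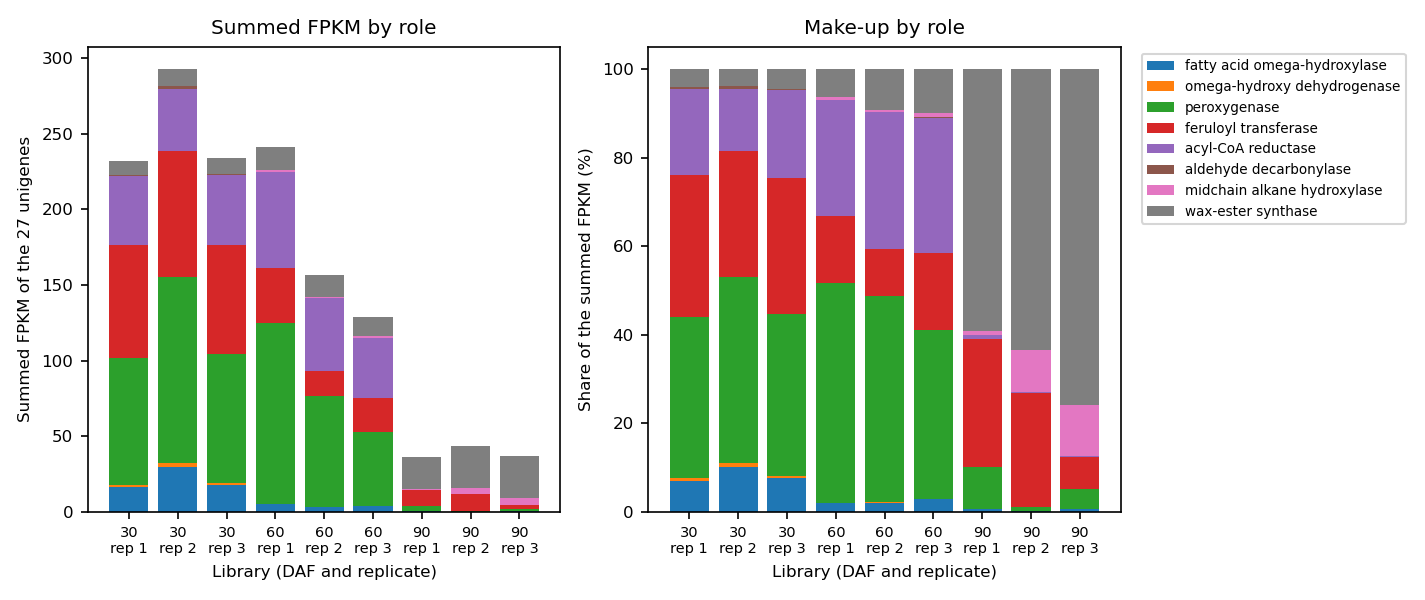
Bars give the FPKM of the 27 unigenes in each of the 9 libraries, stacked by enzyme role, as a sum (left) and as a percentage of that sum (right). The sums at 90 DAF, 36.3 to 43.6 FPKM, lie below all those at 30 and 60 DAF, and wax-ester synthases take most of each of them.

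The mean was highest at 30 DAF for 18 unigenes, at 60 DAF for 7 and at 90 DAF for 2. These were 66.7%, 25.9% and 7.41% of the 27, against 53.8%, 19.1% and 27.1% of the other lipid DEGs. The shares of all unigenes tested were 38%, 9.75% and 52.2%. After median-of-ratios scaling the counts were 16, 9 and 2 (59.3%, 33.3% and 7.41%). The other lipid DEGs then had 46%, 28.4% and 25.6%, and all unigenes tested 33.7%, 24.5% and 41.8%. At 90 DAF, 9 of the 27 (33.3%) were listed at 0 in all 3 libraries, against 9.66% of the other 476 lipid DEGs. Shares of all unigenes tested cover only those that passed a filter of 0.5 FPKM in at least 3 libraries, as 22 of the 27 did. Among these 22, 5 (22.7%) were at 0 throughout 90 DAF, against 3.61% of all unigenes tested. A mean under 0.5 FPKM was found for 4 unigenes at 30 DAF, 13 at 60 DAF and 20 at 90 DAF. These were 14.8%, 48.1% and 74.1% of the 27, against 16%, 18.9% and 30.7% of the other lipid DEGs. Among the 22 that passed the filter the shares were 13.6%, 36.4% and 68.2%, against 19.9%, 29.9% and 19.3% of all unigenes tested. In 24 of the 27 the mean at 90 DAF was below that at 30 DAF (88.9%, against 69.5% of the other lipid DEGs), and in these 24 no library at 90 DAF reached any library at 30 DAF. The same separation was found for 315 of the other 476 lipid DEGs, and for 20 of the 23 fatty acid elongation unigenes among them. Of the 22 that passed the filter, 20 (90.9%) had the lower mean and the separation, where the shares of all unigenes tested were 44.7% for the lower mean and 23.5% for the separation.

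**Figure D2:**
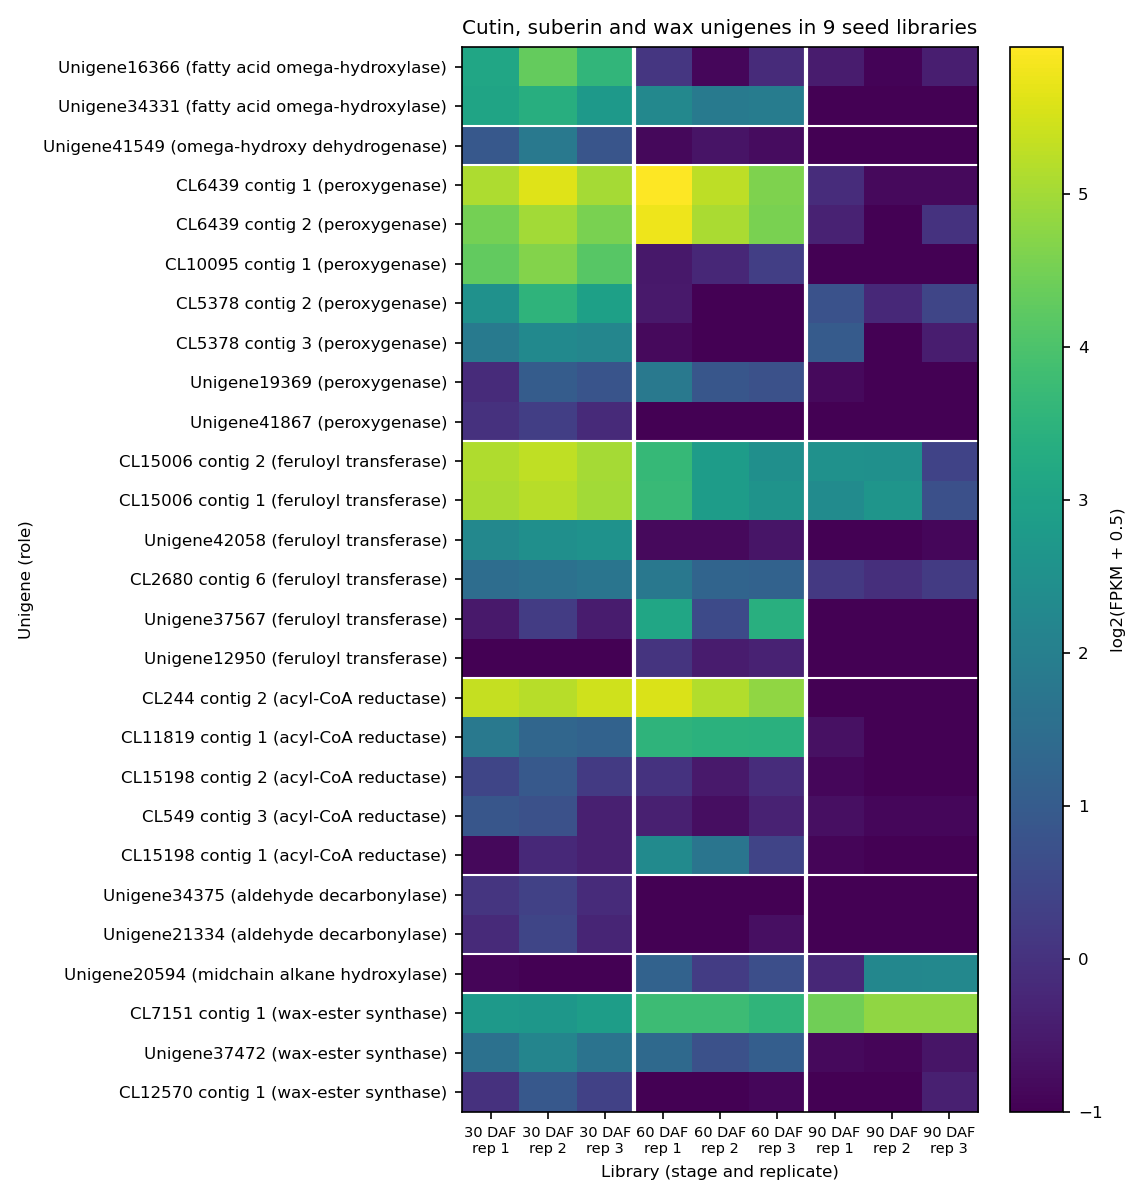
Each row is a unigene, grouped by enzyme role, each column a library, and the colour gives log2(FPKM + 0.5), with -1 for a unigene listed at 0. The 3 columns at 90 DAF are dark for nearly every row, and CL7151.Contig1, a wax-ester synthase, is the brightest row there.

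Changes between stages were fitted with limma on log2(FPKM + 0.5) over the 55192 unigenes that passed the filter. Of the 22 that did, 4 passed only through libraries of 1 stage: Unigene41549, Unigene42058 and CL12570.Contig1 at 30 DAF and CL15198.Contig1 at 60 DAF. The filter set the direction of their changes to or from that stage, and all 4 are within the Group I count below. Those of 30 DAF are also within the Group III count, and CL15198.Contig1 is within that of Group II. Past an adjusted p of 0.05 and a change of at least 1 were 13 of the 22 in Group I, 3 higher and 10 lower at the later stage, where 8.05% of all unigenes tested passed, 1.72% higher and 6.33% lower. In Group II 11 passed, 1 higher and 10 lower, where 27.6% of all passed, 18.2% higher and 9.41% lower. For Group III the count was 20, 2 higher and 18 lower, where 30.2% of all passed, 13.7% higher and 16.5% lower. Of the other lipid DEGs tested, 30.3%, 65.8% and 84.6% passed in Groups I, II and III, against 59.1%, 50% and 90.9% here. They were listed in the same way, and 22.5%, 46.3% and 62.6% of them were lower, against 45.5%, 45.5% and 81.8%. Since the study chose the unigenes on these contrasts, the counts only describe them. The split depended on scaling: median-of-ratios values gave 4 higher and 7 lower in Group I, where 6.33% of all unigenes passed, 2.78% higher and 3.55% lower. They gave 0 higher and 12 lower in Group II, where 21.6% of all passed, 7.5% higher and 14.1% lower, and again 2 higher and 18 lower in Group III, where 28.1% of all passed, 10.2% higher and 17.9% lower. The Group I count of 13 was 8 without 30 DAF replicate 1, 8 without 30 DAF replicate 2 and 8 without 60 DAF replicate 2.

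The median change of the 22 was -0.74, -1.16 and -2.46 in Groups I, II and III. For the other lipid DEGs it was -0.39, -1.0 and -1.50. The 3 contrasts share libraries, so their values are set side by side and were not correlated. In Groups I and III, but not II, 8 unigenes passed the thresholds, among them an omega-hydroxylase, 3 feruloyl transferases and 2 peroxygenases, and 6 passed in Groups II and III but not I. The unigene nearest to the limit, CL12570.Contig1, had a largest change of -1.39. Among the contigs of the same clusters outside the lipid DEGs, the largest changes were -1.77 for CL244.Contig1, -1.37 for CL6439.Contig3 and -1.36 for CL2680.Contig9; the first and second are named here after their values were seen.

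**Figure D3:**
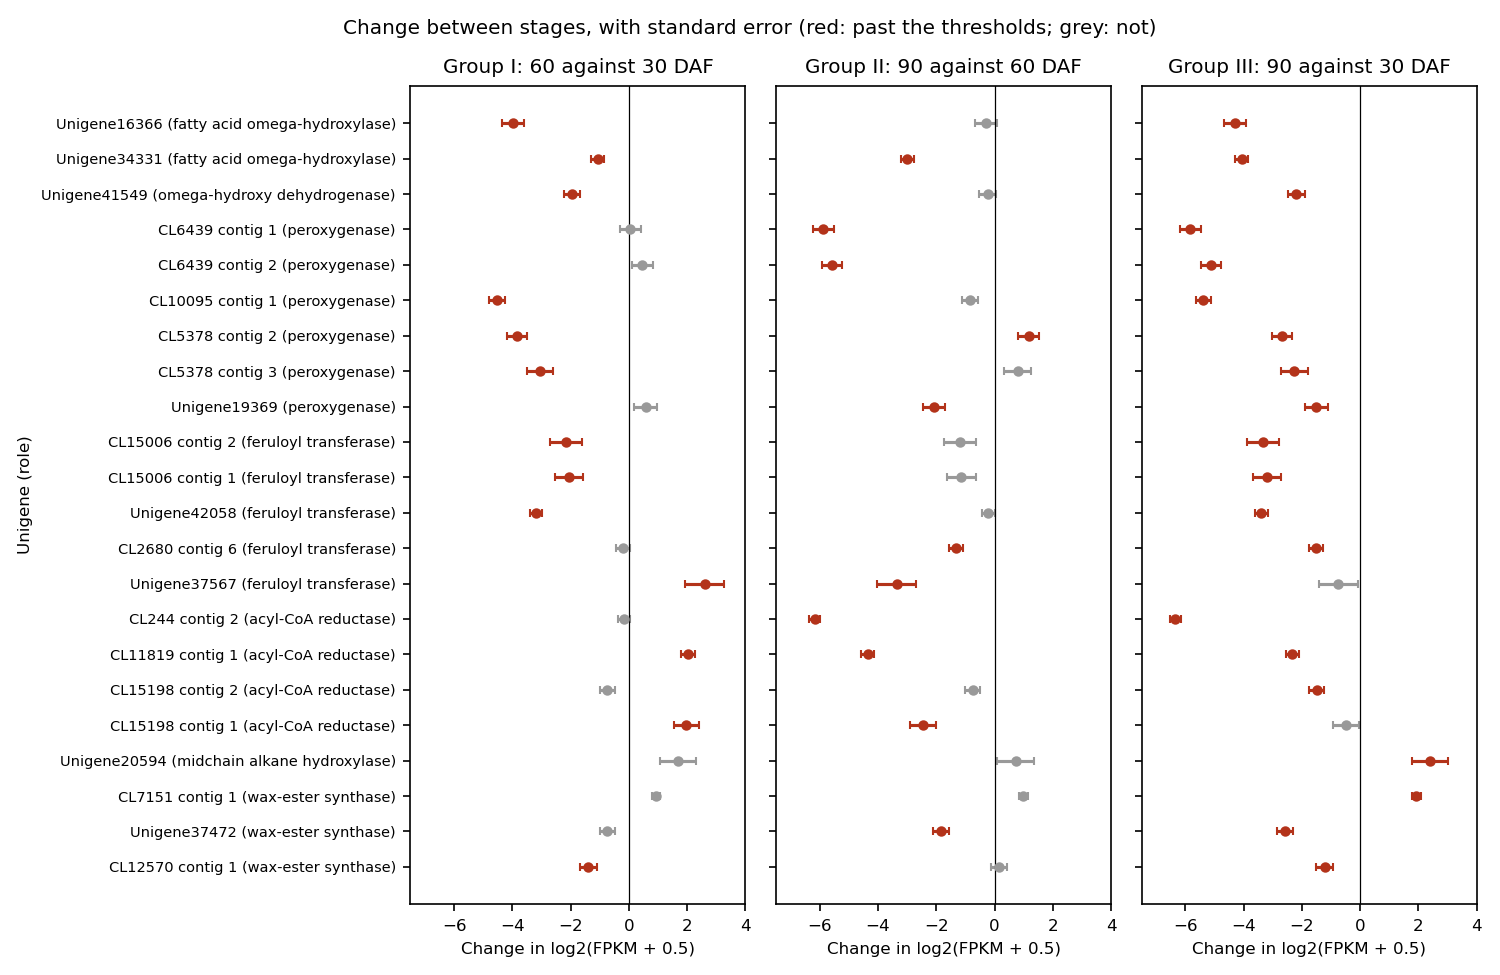
Points give the change in log2(FPKM + 0.5) of the 22 unigenes that passed the filter in each of the 3 contrasts, with bars of 1 standard error; red points are past both thresholds and grey points are not. Most points lie left of 0 in Group III, from -6.34 to 2.39, and the 2 unigenes to the right of it are the midchain alkane hydroxylase and CL7151.Contig1.

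Fatty acid omega-hydroxylases are cytochrome P450 enzymes that add a hydroxyl group to the end carbon of a fatty acid, the step that makes the building blocks of both polyesters. Unigene16366 had 8.26, 19.42 and 11.44 FPKM at 30 DAF, 0.58, 0.04 and 0.4 FPKM at 60 DAF, then 0.22, 0.02 and 0.25 FPKM at 90 DAF. It was high only in the libraries at 30 DAF, and those of the 2 later stages overlapped. The log2 changes in Groups I to III were -3.98, -0.30 and -4.29 (SE 0.38).

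Unigene34331, which carries a different omega-hydroxylase annotation, kept a part of its expression at 60 DAF. Its FPKM was 7.93, 9.86 and 6.34 at 30 DAF, 4.24, 3.1 and 3.27 at 60 DAF, and 0 in all libraries at 90 DAF. The 3 stages did not overlap. The log2 changes were -1.07 in Group I and -3.00 in Group II (SE 0.22), and the first was -0.70, no longer past the thresholds, after median-of-ratios scaling. Without 30 DAF replicate 1 or 2 or 60 DAF replicate 2 or 3 it was -1.07 to -0.92 and missed the adjusted p limit.

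The omega-hydroxy dehydrogenase oxidises the new hydroxyl group on the way to dicarboxylic acids, and its Arabidopsis relative HOTHEAD is needed for a normal cuticle. Its unigene, Unigene41549, had 1.4, 3.03 and 1.27 FPKM at 30 DAF, 0.05, 0.14 and 0.09 at 60 DAF, and 0 at 90 DAF. The libraries at 30 DAF stood above all the others, and the Group I change was -1.95 (SE 0.28).

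Peroxygenases insert oxygen at the double bond of unsaturated fatty acids, which gives epoxy acids and, after hydrolysis, the midchain hydroxyl groups of cutin. Some plant peroxygenases are caleosins of oil bodies. The 7 peroxygenase unigenes were not annotated as caleosin, but whether each acts in cutin or at oil bodies is not given by the annotation. They summed to 97.5 ± 21.8, 80.7 ± 35.9 and 1.86 ± 1.54 FPKM at the stages in order. The sums at 30 and 60 DAF overlapped between libraries, and after median-of-ratios scaling the mean sums were 88, 97.2 and 1.44.

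The peroxygenases divided by whether they were still expressed at 60 DAF. CL6439.Contig1 had 33.7, 48.4 and 32.0 FPKM at 30 DAF, 61.9, 38.0 and 24.2 at 60 DAF, then 0.42, 0.06 and 0.06 at 90 DAF. CL6439.Contig2 had 22.3, 31.4 and 22.9 FPKM at 30 DAF, 54.4, 33.6 and 23.0 at 60 DAF, then 0.3, 0 and 0.51 at 90 DAF. For both contigs the 2 earlier stages overlapped, replicate 1 was the highest library at 60 DAF, and all libraries at 90 DAF were close to 0. The log2 changes in Group II were -5.88 and -5.58 (SE 0.36), against 0.04 and 0.46 in Group I. Contig1 was 1.39 to 1.54 times as abundant as Contig2 at 30 DAF and 1.05 to 1.14 times at 60 DAF.

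Unigene19369, also a peroxygenase, had the same order of stages at a lower level. It had 0.4, 1.54 and 1.25 FPKM at 30 DAF, 3.04, 1.31 and 1.16 at 60 DAF, then 0.06, 0 and 0 at 90 DAF. The 2 earlier stages overlapped here too. Its log2 change in Group III, -1.51 (SE 0.39), missed the adjusted p limit without 30 DAF replicate 2 or 3, at -1.27 or -1.38.

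The other peroxygenases were at or near 0 by 60 DAF. CL10095.Contig1 had 19.2, 25.1 and 17.4 FPKM at 30 DAF, 0.18, 0.36 and 0.73 at 60 DAF, and 0 in all libraries at 90 DAF. Its libraries at 30 DAF stood far above the rest, with log2 changes of -4.54 in Group I and -0.84 in Group II (SE 0.27); the latter was -1.04 and passed the thresholds without 60 DAF replicate 1. CL5378.Contig2 had 5.3, 11.04 and 7.33 FPKM at 30 DAF, 0.2, 0 and 0 at 60 DAF, then 1.2, 0.37 and 0.86 at 90 DAF. Its lowest stage was thus 60 DAF, and it was the only unigene of the 27 that passed the thresholds upward in Group II, by 1.17 (SE 0.35), or 0.96 and not past them after median-of-ratios scaling. Without 60 DAF replicate 2 or 3 or 90 DAF replicate 1 or 3 it was 0.96 to 1.12 and missed the adjusted p limit. CL5378.Contig3 was at 3.08 to 4.45 FPKM at 30 DAF, at most 0.07 at 60 DAF, then 1.51, 0 and 0.23 at 90 DAF, where its libraries overlapped those at 60 DAF. Unigene41867, too low for the filter, had 0.39 to 0.72 FPKM at 30 DAF and was listed at 0 in the other 6 libraries.

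**Figure D4:**
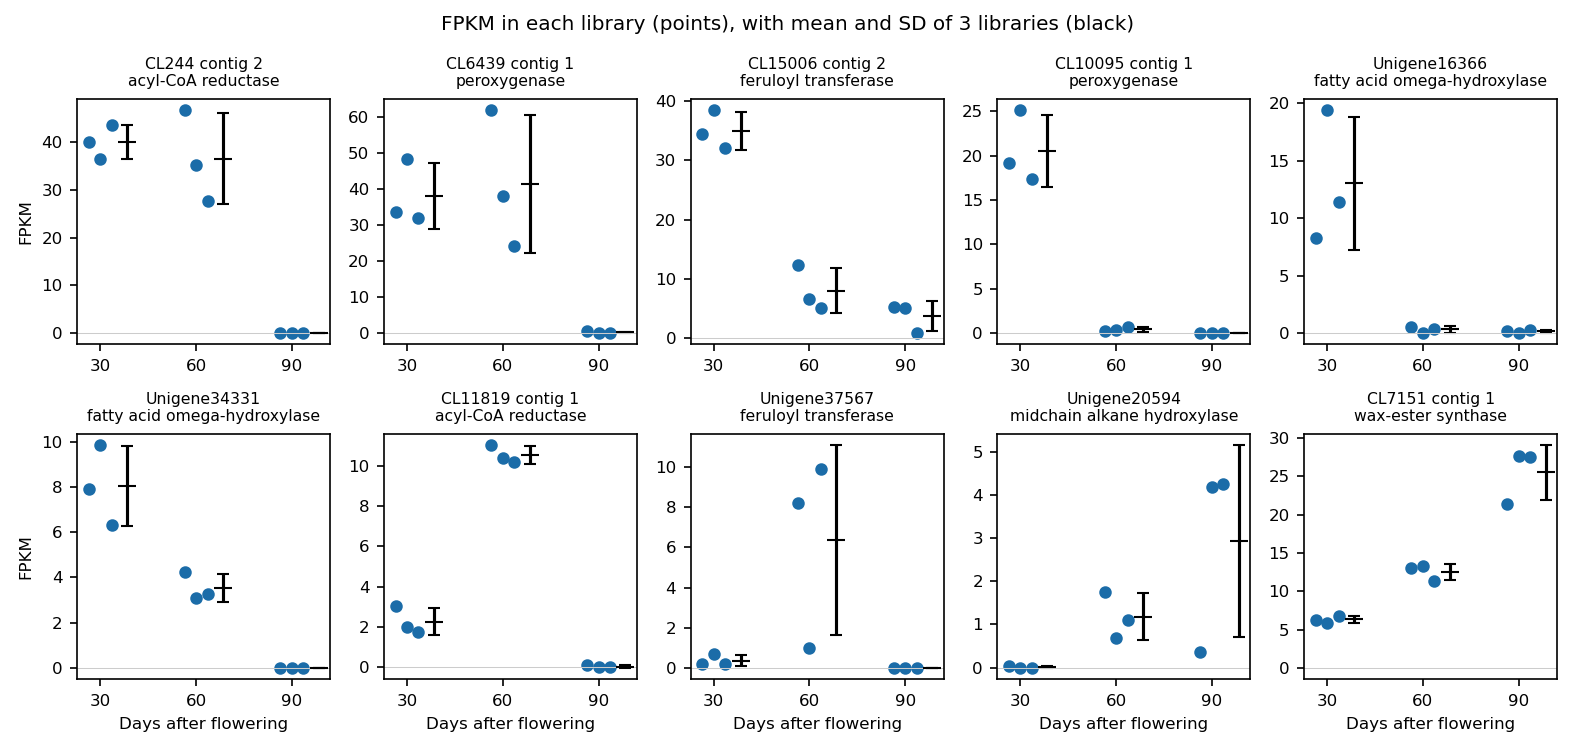
Points give the FPKM of 10 of the unigenes in each library against days after flowering, and the black marks give the mean and SD of the 3 libraries of a stage; each panel has its own linear scale. Contrasting courses are seen, from CL10095.Contig1, at 17.4 to 25.1 FPKM at 30 DAF and at most 0.73 later, to CL7151.Contig1, at 5.92 to 6.82 FPKM at 30 DAF and 21.4 to 27.6 at 90 DAF.

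Feruloyl transferases join ferulic acid to omega-hydroxy fatty acids, the link between the aromatic and the aliphatic part of suberin. Together the 6 unigenes summed to 76.5 ± 5.86, 25.2 ± 10.3 and 8.13 ± 4.77 FPKM at the stages in order. Most of this came from 1 cluster. CL15006.Contig1 had 33.5, 36.3 and 31.3 FPKM at 30 DAF, 12.6, 6.67 and 5.42 at 60 DAF, then 4.61, 5.7 and 1.13 at 90 DAF. CL15006.Contig2 had 34.4, 38.5 and 32.1 FPKM at 30 DAF, 12.3, 6.66 and 5 at 60 DAF, then 5.23, 5.14 and 0.82 at 90 DAF.

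Both contigs were highest in the libraries at 30 DAF, the later stages overlapped, and replicate 3 was the lowest library at 90 DAF. Contig1 was between 0.881 and 1.38 times Contig2 in every library, so the 2 rows hardly differ, and their separate levels are uncertain where reads fit both. Their log2 changes were -2.06 and -2.15 in Group I (SE 0.49 and 0.55) and -1.14 and -1.19 in Group II, and the Group I changes were past the thresholds in the deposited FPKM but not after median-of-ratios scaling, where the Group II changes passed instead. Leaving out any library at 30 DAF, or replicate 2 or 3 at 60 DAF, left both Group I changes near their size, at -2.11 to -1.82 and -2.21 to -1.89, but their adjusted p missed the limit, as it did after that scaling. Without 90 DAF replicate 3 the Group II changes were -0.55 and -0.48, and without 90 DAF replicate 2 that of Contig1 was -1.51 and passed the thresholds. In Group III they were -3.20 and -3.34. Of all 27 unigenes, these contigs and CL7151.Contig1 were the only ones above 0.5 FPKM in every library.

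The remaining feruloyl transferases had contrasting courses. Unigene42058 had 4.29, 5.02 and 5.41 FPKM at 30 DAF and at most 0.16 FPKM in the later libraries, and its Group I change was -3.19 (SE 0.21). Unigene37567 had 0.19, 0.69 and 0.22 FPKM at 30 DAF, 8.21, 0.97 and 9.91 at 60 DAF, and 0 in all libraries at 90 DAF. Its libraries at 60 DAF were all above those at 30 DAF, but replicate 2 lay close to them, and the log2 change of 2.61 in Group I had an SE of 0.67. Leaving out any library at 30 DAF, any 1 of replicates 1 and 3 at 60 DAF, or replicate 2 at 90 DAF gave 2.09 to 2.86, with an adjusted p that missed the limit.

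Unigene12950 was detected only at 60 DAF, with 0.53, 0.22 and 0.3 FPKM, and did not pass the filter. CL2680.Contig6 had 2.32, 2.54 and 2.79 FPKM at 30 DAF, 2.97, 1.87 and 1.8 at 60 DAF, then 0.62, 0.45 and 0.66 at 90 DAF. The 2 earlier stages overlapped and 90 DAF was below both, with a log2 change of -1.31 in Group II (SE 0.24). This contig was a small part of its cluster: all 10 contigs of CL2680 summed to 21.7 ± 5.82, 26.5 ± 3.69 and 19.7 ± 1.02 FPKM. CL2680.Contig8 held most of that, with 12, 19 and 16.4 FPKM at the 3 stages. It is not among the 503 lipid DEGs, but the study's pathway annotation placed it in cutin, suberin and wax biosynthesis. It was not past the thresholds in any contrast.

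Alcohol-forming acyl-CoA reductases turn activated fatty acids into the primary alcohols of suberin and wax. The 5 unigenes summed to 44.5 ± 2.68 FPKM at 30 DAF and 50.4 ± 11.9 at 60 DAF, and to 0.127 ± 0.15 at 90 DAF. All libraries at 90 DAF were far below those of both earlier stages, which overlapped.

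CL244.Contig2 was the most abundant of the 27 at 30 DAF. It had 40.1, 36.5 and 43.6 FPKM at 30 DAF, 46.8, 35.2 and 27.7 at 60 DAF, and 0 in all 3 libraries at 90 DAF. The 2 earlier stages overlapped, and the change in Group I was -0.16 as deposited and 0.25 after median-of-ratios scaling. The log2 change in Group II was -6.18 (SE 0.20), the lowest of the 22. No fold change is given against a stage listed at 0.

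Other reductases were highest at 60 DAF. CL11819.Contig1 had 3.02, 1.98 and 1.77 FPKM at 30 DAF, 11.03, 10.37 and 10.16 at 60 DAF, then 0.12, 0 and 0 at 90 DAF. The 3 stages did not overlap, and the mean at 60 DAF was 4.66 times that at 30 DAF. On the log2 scale the changes were 2.03 in Group I and -4.36 in Group II (SE 0.23).

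The order of the contigs of cluster CL15198 differed between stages, at low FPKM. CL15198.Contig1 had 0.05, 0.37 and 0.27 FPKM at 30 DAF, 4.49, 2.79 and 0.85 at 60 DAF, then 0.03, 0 and 0 at 90 DAF. CL15198.Contig2 had 0.87, 1.43 and 0.64 FPKM at 30 DAF, 0.52, 0.19 and 0.42 at 60 DAF, then 0.04, 0 and 0 at 90 DAF. Contig1 was below Contig2 in every library at 30 DAF, at 0.0575 to 0.422 times its FPKM, and above it in every library at 60 DAF, at 2.02 to 14.7 times. At both stages the lower contig had at most 0.52 FPKM, so these ratios rest on few reads and their sizes are uncertain. The change of Contig1 in Group I, 1.97 (SE 0.44), was 0.96 and not past the thresholds when the contigs of the cluster were summed. Without any 1 library at 30 DAF, or without replicate 1 or 2 at 60 DAF, it was 1.56 to 2.11 and missed the adjusted p limit. CL549.Contig3, below the filter, had 1.32, 1.14 and 0.27 FPKM at 30 DAF and at most 0.29 in any later library.

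Aldehyde decarbonylases, known in Arabidopsis as CER1, take part in making the alkanes of wax. Both unigenes were low and did not pass the filter. Unigene34375 had 0.56, 0.77 and 0.4 FPKM at 30 DAF and was listed at 0 in every later library. Unigene21334 had 0.39, 0.87 and 0.33 FPKM at 30 DAF and was detected in a single later library, replicate 3 at 60 DAF, with 0.11 FPKM.

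The midchain alkane hydroxylase, a cytochrome P450 that in Arabidopsis stems turns alkanes into secondary alcohols and ketones, had the opposite course. Unigene20594 had 0.03, 0 and 0 FPKM at 30 DAF, 1.76, 0.69 and 1.1 at 60 DAF, then 0.36, 4.18 and 4.26 at 90 DAF. It was nearly absent at 30 DAF, and replicate 1 at 90 DAF lay below all libraries at 60 DAF, so the 2 later stages overlapped. The log2 changes were 1.67, 0.72 and 2.39 in Groups I, II and III (SE 0.62), with only the last past the thresholds. Without 90 DAF replicate 1 the Group II change was 1.54 and passed them, as the Group I change of 1.67 then did, and without 90 DAF replicate 2 or 3 it was 0.31 or 0.30.

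Wax-ester synthases join a fatty alcohol to an activated fatty acid, and their annotation also names them as diacylglycerol acyltransferases, the enzymes of the last step of oil synthesis. The role of each unigene in wax or oil is not given by the annotation. CL7151.Contig1 had 6.21, 5.92 and 6.82 FPKM at 30 DAF, 13.1, 13.2 and 11.3 at 60 DAF, then 21.4, 27.6 and 27.5 at 90 DAF. Each stage stood above the one before with no overlap, and the mean at 90 DAF was 4.04 times that at 30 DAF.

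For CL7151.Contig1 the log2 changes in Groups I to III were 0.93, 0.99 and 1.93 (SE 0.15). After median-of-ratios scaling they were 1.33, 0.38 and 1.71, so the sizes of both steps depended on the scaling and the Group I change passed the thresholds under it. In the deposited FPKM the Group I change passed them, at 1.0, without 60 DAF replicate 3. The Group II change did, at 1.02 to 1.11, without 60 DAF replicate 1 or 2 or 90 DAF replicate 1. It was the only 1 of the 27 with 10 FPKM or more at 90 DAF, where 7 had reached that level at 30 DAF and 5 at 60 DAF.

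The other wax-ester synthases were lower at 90 DAF than at 30 DAF. Unigene37472 had 2.5, 4 and 2.66 FPKM at 30 DAF, 2.09, 1.16 and 1.63 at 60 DAF, then 0.06, 0.03 and 0.16 at 90 DAF. Its stages did not overlap, and the log2 change in Group III was -2.59 (SE 0.27). CL12570.Contig1 had 0.5, 1.39 and 0.78 FPKM at 30 DAF and at most 0.26 FPKM later, where 4 of the 6 libraries were at 0. Its Group I change of -1.39 (SE 0.28) was -1.37 and missed the adjusted p limit without 60 DAF replicate 2. In Group III the change of -1.22 was -0.98 without 30 DAF replicate 2, under the limit on the change.

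The pathway annotation of the study placed 8 further unigenes in cutin, suberin and wax biosynthesis, from lists of DEGs that are held only in part for Groups II and III. Contigs of the caleosin cluster CL6205 were left out of this count. In Group III, 3 of the 8 were higher and 3 lower past the thresholds, where 13.7% of all unigenes tested were higher and 16.5% lower. The 2 most abundant were Unigene15615, with 45, 69.9 and 41.3 FPKM at 30 DAF, 6.03, 5.32 and 8.16 at 60 DAF and 0 at 90 DAF, and CL14215.Contig2, with 34.1 ± 7.74, 9.43 ± 2.35 and 21.1 ± 13.9 FPKM. CL14215.Contig2 was not past the thresholds in any of the 3 contrasts.

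Fatty acid elongation supplies the very-long-chain acyl chains of wax and suberin. Of its 23 unigenes among the lipid DEGs, 22 were tested, and 3 were higher and 17 lower past the thresholds in Group III (all unigenes tested, 13.7% and 16.5%). In Group I, 1 was higher and 7 lower (all unigenes tested, 1.72% and 6.33%). In Group II, 3 were higher and 8 lower (all unigenes tested, 18.2% and 9.41%). These unigenes, too, were listed by the study for their differences between stages. The 2 most abundant were CL15103.Contig1, at 392 ± 79.7, 792 ± 149 and 17.1 ± 1.25 FPKM, and CL14039.Contig2, at 55.0 ± 2.7, 25.3 ± 4.0 and 0.957 ± 0.964 FPKM. Both had their lowest mean at 90 DAF, as the acyl-CoA reductases did.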

How the data were processed

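The authors assembled the reads of 9 seed libraries with Trinity and Tgicl, aligned each library to these unigenes (Bowtie2), and derived expression values from the alignments (RSEM); the deposited values are in FPKM. Tool versions: not given in the sources used here. Because FPKM is not a count, no count model was fitted, and low values can lie within counting error. From the deposited FPKM, log2(FPKM + 0.5) was computed, and limma 3.58.1 in R 4.3.3 (with a trend) was fitted over all 9 libraries with a term for each stage, for the 55192 unigenes that reached 0.5 FPKM in 3 or more libraries. Calls needed an adjusted p of at most 0.05 (Benjamini-Hochberg over all unigenes tested) and a change of at least 1. The authors set these limits too, and used DESeq2. The 9 lines of the table without a unigene were left out. Sums, ratios and figures were made with Python 3.11.15.

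Unigenes were found by the definitions in the study's list of 503 lipid DEGs, all of which were in the table. All 27 are named; of the other lists only the 2 unigenes with the highest mean were named, except where stated. The unigenes and lists were chosen with earlier results of these data known. The alternatives were other added values, filters, scalings, libraries and thresholds, summing the contigs of a cluster, and a replicate block. The p-values measure only the spread between these libraries. Sequences of the unigenes were not used here.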

Additional observations from a re-analysis of the deposited data

How the results depend on the processing

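No alternative reversed the direction of a change past the thresholds in the 924 comparisons of single unigenes, of which 853 kept their side of the thresholds, 51 lost it and 20 gained it. The number of unigenes past them in Group I, 13, was 7 at an adjusted p of at most 0.01 and 8 to 14 when 1 library was left out; it was 10 to 13 in Group II and 18 to 20 in Group III. The median change in Group I was -0.12 with the contigs of a cluster summed, and -0.88 to -0.54 when 1 library was left out. In Group II it was -1.89 with 0.1 added, -0.75 with no filter and -1.71 after median-of-ratios scaling, and -1.40 to -0.79 when 1 library was left out. In Group III it was -3.48 with 0.1 added, -1.81 with 1 added, -2.19 with no filter or with contigs summed, -2.94 with a filter of 1 FPKM and -2.18 after quantile normalization, and -2.70 to -2.34 when 1 library was left out. The summed FPKM at 90 DAF was 30.8 after median-of-ratios scaling; leaving out 1 library of a stage gave ranges of 233 to 263, 143 to 199 and 36.5 to 40.2 for the stages in order. Causes of these shifts were not tested, apart from those made by the alternative itself (fewer or more unigenes, a larger or smaller added value). Same-numbered residuals correlated between -0.16 and 0.128, and differently numbered ones between -0.13 and 0.179. No pairing by replicate number was seen, but residuals of so few libraries cannot show its absence. With a replicate block, 10, 10 and 20 unigenes were past the thresholds in Groups I, II and III. Unigenes under about 0.5 FPKM rest on few reads, and at this depth their differences could not be resolved.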

Other observations

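Replicate 2 at 30 DAF was the highest of its stage for 19 of the 26 cutin, suberin and wax unigenes with an untied maximum (73.1%, against 54.1% of all unigenes tested), or 15 of 26 (57.7%, against 31.8%) after median-of-ratios scaling. Replicate 1 at 60 DAF was highest for 17 of 25 (68%, against 44.9%), or 64% against 34.8% after that scaling. These counts come from libraries that share their depth and from contigs that share sequences, and they were not tested.

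Cluster CL14215, which the study placed in the same pathway, held contigs with different courses; all but Contig2 are named here after their values were seen. Contig1 had 0.27 ± 0.349, 6.37 ± 3.24 and 12.9 ± 6.27 FPKM at 30, 60 and 90 DAF, Contig3 had 2.09 ± 2.07, 11.5 ± 6.13 and 40.1 ± 22.3, and Contig4 had 1.23 ± 0.277, 3.23 ± 2.03 and 34.1 ± 14 (SD, n = 3). Replicate 1 at 90 DAF was the lowest library of its stage for all 4 contigs, as it was for the midchain alkane hydroxylase Unigene20594.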
